A study of Mus musculus with 2 samples.

Results

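The genes described are the subunits and assembly factors of oxidative phosphorylation, chosen by symbol alone: those starting with mt-Nd, mt-Co, mt-Cyt, mt-Atp, Ndufa, Ndufb, Ndufc, Ndufs, Ndufv, Sdha to Sdhd, Uqcr, Cox4 to Cox8 and Atp5. The rule took 114 of the 33696 genes in the count tables, of which 13 are encoded in the mitochondrial genome and 101 in the nucleus. Complex I holds 7 mitochondrial and 47 nuclear genes, complex II 8 nuclear genes, complex III 1 and 8, complex IV 3 and 21, and complex V, the ATP synthase, 2 and 17. The nuclear genes include 12 assembly factors (8 for complex I and 4 for complex II), and also near-identical copies or a pseudogene (Ndufb11b, Ndufb4b and Cox5b-ps), whose reads cannot be assigned with certainty. Ndufb11b had no unique molecular identifier (UMI, the tag that counts 1 captured RNA molecule) in either library, Cox8c had none in sham and Cox7b2 none in JVL-14, so 112 genes were detected in each library.

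Oxidative phosphorylation passes electrons from NADH through complex I, and from succinate through complex II, to ubiquinone, then through complex III and cytochrome c to complex IV, which reduces oxygen. Complexes I, III and IV pump protons across the inner mitochondrial membrane, and complex V makes ATP as the protons flow back. The mitochondrial genome encodes membrane-embedded core subunits, all other subunits are nuclear genes translated in the cytosol and imported, and complex IV has tissue-specific isoforms of several nuclear subunits, some of them restricted to heart and skeletal muscle.

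The samples were dissociated dura mater, the outer meningeal membrane, of female mice, profiled by droplet single-cell RNA sequencing of transcript 3' ends. One library, sham, came from mice after sham surgery, and the other, JVL-14, from mice at day 14 of a jugular venous ligature. In both, 2 meninges were pooled per well, viable singlets were sorted and 20000 cells were loaded. The number of mice, their age and strain and the time after sham surgery are not stated in the labels. With 1 library per group no test of sham against JVL-14 was possible, animals, pools and libraries cannot be told apart from the surgery, and all intervals given are 95% intervals that cover counting error only.

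The sham table held 5495 barcodes with 33996641 UMIs and that of JVL-14 held 3004 barcodes with 18796260 UMIs, of which 4672 and 2471 cells were retained. Levels are UMI counts scaled to 1e6 UMIs (CPM) pooled over the cells of a class, or percentages of its UMIs; a 3' count does not grow with transcript length. Cell classes were rebuilt from marker genes, so that each class name stands for cells like that type, and 608 and 321 retained cells remained in unnamed clusters. The class called monocyte was led by Cd209a, and the class called neuron by Stoml3, Omp, S100a5 and Gnal, genes of olfactory sensory neurons. Skeletal muscle cells (249 in sham, 3 in JVL-14), choroid plexus cells (80 and 0) and pineal cells (52 and 0) came almost wholly from the sham library. The 2 tables shared 2 barcode sequences, 1 of them among retained cells.

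The balance between the mitochondrial and the nuclear genes differed widely between classes. Over all retained sham cells, the 13 mitochondrial genes made up 2.30% of UMIs and the 101 nuclear genes 2.71%, or 0.849 mitochondrial UMIs per nuclear UMI. Osteoblast lineage cells stood at 1.66 mitochondrial UMIs per nuclear UMI in sham, B cells at 1.54, macrophages at 1.31 and fibroblasts, cells that lay down the dural matrix, at 1.22. Monocytes (0.571) and neurons (0.566) carried fewer mitochondrial than nuclear UMIs. Neutrophils were low in both, with 0.364% mitochondrial and 0.986% nuclear UMIs in sham. Skeletal muscle, choroid plexus and pineal cells held the most nuclear UMIs, at 11.6%, 8.29% and 8.07%, against 0.320%, 1.89% and 2.96% mitochondrial UMIs.

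**Figure D1:**
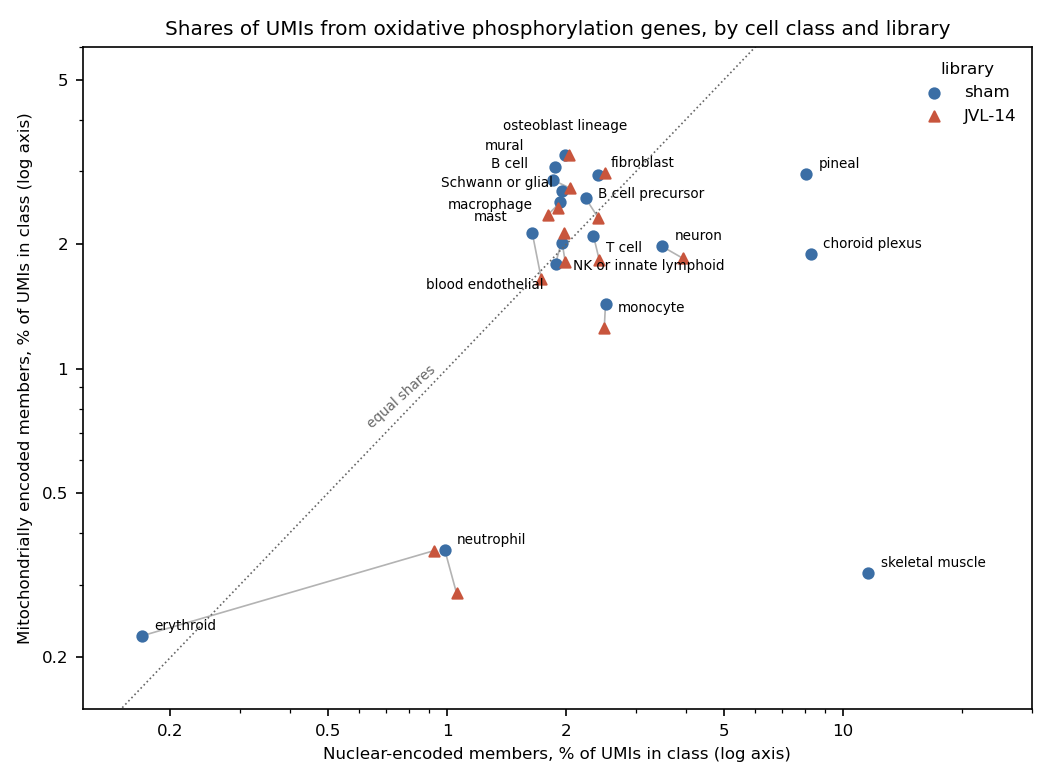
Share of UMIs from the 13 mitochondrial and the 101 nuclear oxidative phosphorylation genes in each cell class, sham and JVL-14 libraries, in percent. Muscle stands apart with 11.6% nuclear and 0.320% mitochondrial UMIs in sham, and neutrophils and erythroid cells are low in both.

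The mitochondrial shares have an upper limit set by the cell filter. Every gene with an mt- prefix in the tables is one of the 13, so the limit of 10% mitochondrial UMIs per barcode cut the same sum that is measured here. It removed 278 sham and 152 JVL-14 barcodes, with a median of 13.7% and 14.8% mitochondrial UMIs and of 1013.5 and 1058 UMIs per barcode. These barcodes held 7.17% and 9.14% of each library's mitochondrial UMIs. Without the limit, 138 sham fibroblasts (8.81%) and 77 JVL-14 fibroblasts (10.6%) lay above it, and the fibroblast mitochondrial share was 3.16% and 3.26% in place of 2.94% and 2.97%. Among muscle cells 1 barcode lay above the limit, and the muscle share was 0.328% without it.

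Skeletal muscle cells had high levels of most nuclear genes and few mitochondrial UMIs. Of the 89 nuclear genes with at least 50 CPM in muscle or in all retained sham cells, 81 were at least 2-fold higher in muscle, with a median of 3.79-fold, against 19.4% of all genes under the same filter. A gene could enter this filter by its muscle level alone, as Ndufaf5 did, which favours high counts. The share of all genes has the same bias, but the sets were not matched in abundance. The sums by complex do not use the filter. Summed by complex, muscle stood at 3.77 times all retained cells for complex I, 2.99 for complex II, 4.36 for complex III, 4.28 for complex IV and 4.89 for complex V. The mitochondrial genes of complexes I, III, IV and V stood at 0.15, 0.11, 0.14 and 0.14 times all retained cells. Both muscle clusters showed it: 98 cells led by Ckm had 0.192% mitochondrial and 11.6% nuclear UMIs, and 151 cells led by Ttn had 0.605% and 11.4%. The median muscle cell had 0.104% mitochondrial UMIs and 1739 UMIs in all. The summed level of Malat1 and Neat1, RNAs kept in the nucleus, was also low in muscle, at 0.1505 times all retained cells, and its part in the result was not tested.

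Other lists of energy metabolism were compared in the same sham muscle cells. Relative to all retained cells, the glycolysis list of 19 genes stood at 8.28-fold, mitochondrial carriers and uncoupling genes (15) at 6.26-fold, tricarboxylic acid cycle and pyruvate dehydrogenase genes (21) at 4.84-fold and mitochondrial ribosome genes (78) at 2.35-fold. The 23 genes of mitochondrial transcription and biogenesis, among them Ppargc1a and Tfam, stood at 1.21-fold, and the 9 mitochondrial antioxidant genes at 1.34-fold.

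The complex IV isoforms known from heart and muscle were highest in muscle cells. Cox6a2 reached 5451 CPM (5274 to 5632) in sham muscle cells, Cox8b 2897 CPM (2768 to 3030) and Cox7a1 1495 CPM (1403 to 1592). Muscle cells held 91.7%, 88.2% and 81.0% of all retained sham UMIs of these 3 genes. Their widely expressed partners were lower in muscle for the first 2 pairs, with Cox6a1 at 31.9 CPM and Cox8a at 240 CPM, whereas Cox7a2 stood at 1199 CPM, beside Cox7a1. In sham fibroblasts the order was the opposite: Cox6a1 stood at 220 CPM and Cox6a2 at 4.58 CPM, Cox8a at 1080 CPM and Cox8b at 2.44 CPM, Cox7a2 at 422 CPM and Cox7a1 at 3.66 CPM. With each cell thinned to 1000 UMIs, which left out 60 of the 249 muscle cells, Cox6a2 was seen in 98.4% of muscle cells, Cox8b in 90.5%, Cox7a1 in 72.5% and Cox8a in 17.5%. In sham fibroblasts thinned alike, Cox6a2 was seen in 0.462%, Cox7a1 in 0.616% and Cox8b in 0.308% of cells, and unthinned Cox6a2 was seen in 96.8% of muscle cells.

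**Figure D2:**
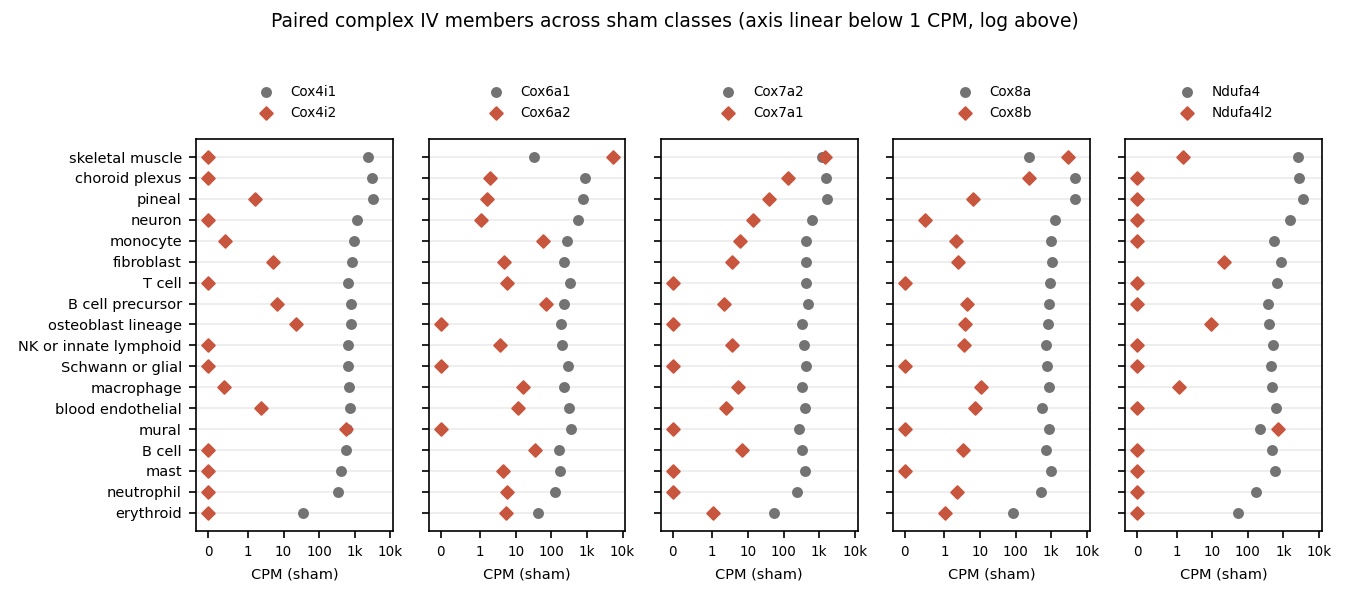
Levels in CPM, on a log axis, of paired isoforms of complex IV subunits in each class of the sham library. Cox6a2, Cox8b and Cox7a1 are highest in muscle at 5451, 2897 and 1495 CPM, and Cox4i2 and Ndufa4l2 are highest in mural cells.

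Promoter sequences are shown for the isoform pairs with a member that was highest in muscle, to set the base composition of that member beside that of its partner. The windows are the 250 bases before the annotated start, read from RefSeq's mouse promoters on GRCm38.p6, a build other than the mm39 used for the counts; 82 of the 101 nuclear genes had an entry by symbol, and Cox6a2 was not among them. Cox7a1 is on the plus strand at chr7:30183921-30184170 and Cox7a2 on the minus strand at chr9:79759854-79760103. Cox8b is on the minus strand at chr7:140900447-140900696, Cox8a on the minus strand at chr19:7217617-7217866, and Cox6a1 on the minus strand at chr5:115348959-115349208. Each is written 5′ to 3′ along its gene, and capitals mark the motifs found in it.
Cox7a1: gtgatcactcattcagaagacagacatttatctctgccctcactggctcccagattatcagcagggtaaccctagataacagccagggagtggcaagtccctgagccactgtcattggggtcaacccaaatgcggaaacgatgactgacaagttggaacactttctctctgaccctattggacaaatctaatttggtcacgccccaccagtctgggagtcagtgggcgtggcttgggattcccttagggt
Cox7a2: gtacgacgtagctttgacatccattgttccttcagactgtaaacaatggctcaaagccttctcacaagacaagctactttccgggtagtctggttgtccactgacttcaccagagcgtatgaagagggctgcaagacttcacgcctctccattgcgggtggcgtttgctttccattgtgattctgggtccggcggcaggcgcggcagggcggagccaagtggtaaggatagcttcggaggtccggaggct
Cox8b: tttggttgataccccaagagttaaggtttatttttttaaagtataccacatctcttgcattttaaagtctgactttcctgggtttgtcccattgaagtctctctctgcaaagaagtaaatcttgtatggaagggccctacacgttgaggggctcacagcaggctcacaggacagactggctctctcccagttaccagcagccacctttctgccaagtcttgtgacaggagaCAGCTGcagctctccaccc
Cox8a: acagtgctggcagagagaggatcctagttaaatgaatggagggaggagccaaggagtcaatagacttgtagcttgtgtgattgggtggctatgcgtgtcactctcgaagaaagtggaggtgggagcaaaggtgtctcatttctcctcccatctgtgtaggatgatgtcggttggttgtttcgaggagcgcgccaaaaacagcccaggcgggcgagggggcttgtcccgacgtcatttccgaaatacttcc
Cox6a1: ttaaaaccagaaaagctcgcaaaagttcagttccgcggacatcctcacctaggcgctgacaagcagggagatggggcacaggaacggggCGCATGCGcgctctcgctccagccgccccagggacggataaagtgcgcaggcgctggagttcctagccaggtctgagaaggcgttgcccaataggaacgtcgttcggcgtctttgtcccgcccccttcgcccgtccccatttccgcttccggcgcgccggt
The window of Cox7a1 held 4 CpG dinucleotides and that of Cox8b held 1, against 14 for Cox7a2, 11 for Cox8a and 26 for Cox6a1. The median was 14 over the 82 windows and 6 over all 32851 promoters in the table. The capitals in Cox8b are an E-box, CAGCTG, and those in Cox6a1 are the core of the motif of NRF1 (nuclear respiratory factor 1), CGCATGCG. On both strands, the NRF1 core was in 8 of the 82 windows (9.76%) and in 1.55% of all promoters. The ETS core ACTTCCGG was in 3 of 82 (3.66%) and 2.88% of all, the ERR site TCAAGGTCA in 1 of 82 (1.22%) and 0.387%, and CAGCTG in 6 of 82 (7.32%) and 13.001%. The NRF1 core itself contains CpG, and the set of all promoters was not matched to the members in CpG content. The part of base composition in these shares was not tested. A match is a match of letters, and binding was not measured.

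Some muscle RNA was present in the other sham classes, and it touches the low values of these isoforms. The 10 muscle markers summed to 87.4 to 359 CPM in the compared sham classes and to 5.04 to 55.4 CPM in the same JVL-14 classes, with 1 to 3 and 1 to 8 of the 10 at 0; Myh4 was at 0 in every class, muscle included. In monocytes Tnni2 gave the most marker UMIs in both libraries (140 and 61). Per 100 muscle marker UMIs, sham fibroblasts held 2.46 Cox6a2 UMIs, close to the 2.47 of muscle itself. Macrophages held 4.39, B cells 16.3, B cell precursors 23.4 and monocytes 27.4, all 4 above the proportion in muscle cells.

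Cox6a2 in the monocyte class came from few cells. It came to 57.3 CPM in sham monocytes and 83.9 CPM in those of JVL-14, but 5 cells held 104 of the 133 sham UMIs and 5 cells held 92 of the 103 JVL-14 UMIs. Siglech, a surface receptor of plasmacytoid dendritic cells and microglia, was seen in all 5 of these cells in both libraries and in 12 of the other 241 sham and 7 of the other 122 JVL-14 cells. Ccr9, a chemokine receptor, was seen in 3 and 4 of the 5, and in 3 and 4 of the rest. Bst2, also looked up, was seen in all 5 in both libraries, but also in 189 of the other sham and 81 of the other JVL-14 cells. Siglech, Ccr9 and Bst2 were picked after the values were seen. Siglech was seen in 0 of the 5 cells with the most Cox6a2 UMIs in B cell precursors of either library and in sham macrophages.

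Choroid plexus and pineal cells had the other high nuclear sums, in the sham library alone. Their genes were counted under the filter used for muscle, with the level in each class in place of that in muscle. It favours high counts in the same way. In choroid plexus cells, which secrete cerebrospinal fluid, 67 of 88 nuclear genes were at least 2-fold above all retained cells, against 19.8% of all genes. The highest were Atp5g1, a copy of the proton-conducting c subunit of ATP synthase, at 3021 CPM (6.27-fold), Cox6b2, an isoform known from testis, at 310 CPM (6.05-fold) and the complex I accessory subunit Ndufa11 at 1345 CPM (5.43-fold). The mitochondrial share of these cells varied, with quartiles of 0.167%, 1.04% and 4.61%, and their Malat1 and Neat1 level was 0.0365 times all retained cells. In pineal cells 69 of 90 nuclear genes were at least 2-fold higher, against 33.0% of all genes. Atp5k, the e subunit of ATP synthase, led at 4205 CPM (10.5-fold), followed by Ndufv3, an accessory subunit of complex I, at 1519 CPM (5.15-fold) and Atp5j2, the f subunit of ATP synthase, at 2405 CPM (4.72-fold).

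Choroid plexus cells also held Cox8b and Cox7a1 without Cox6a2. Cox8b stood at 240 CPM (201 to 285), with 130 UMIs in 31 of 80 cells and 50.8% of these in 5 cells, and Cox7a1 at 133 CPM (104 to 168), with 72 UMIs in 35 of 80 cells and 34.7% of these in 5 cells. Cox6a2 had 1 UMI. The muscle markers summed to 73.9 CPM there, so that Cox8b came to 325 UMIs per 100 muscle marker UMIs, against 1.32 in muscle, and Cox7a1 to 180, against 0.679. These 2 isoforms were therefore not in the ratio to muscle markers seen in muscle cells.

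Single members stood out in smaller classes and in neurons. In sham mural cells (21 cells), which wrap blood vessels, Cox4i2, an isoform of complex IV subunit 4 known to be induced by low oxygen, stood at 548 CPM from 20 UMIs (335 to 847). Ndufa4l2, a paralog of the complex IV subunit Ndufa4 and a known target of hypoxia-inducible factor, stood there at 713 CPM from 26 UMIs (466 to 1044). In sham natural killer or innate lymphoid cells Sdhaf1, an assembly factor that brings iron-sulphur clusters to complex II, stood at 194 CPM (4.37-fold over all retained cells), and in JVL-14 at 115 CPM (2.70-fold). It was also above 2-fold in sham mast cells (2.53-fold), sham neurons (2.33-fold) and JVL-14 B cell precursors (2.12-fold). In neurons Ndufaf4, a complex I assembly factor, reached 181 CPM (4.43-fold) in sham and 216 CPM (4.11-fold) in JVL-14, and Ndufv3 at 799 CPM (2.71-fold) and 936 CPM (3.50-fold). In neurons 10 of 87 nuclear genes were at least 2-fold above all retained cells in sham (34.4% of all genes) and 24 of 85 in JVL-14 (34.1%). Genes could enter these counts and shares by their neuron level alone, which favours high values, and the sets were not matched in abundance. In B cell precursors Sdhaf2, which attaches the flavin cofactor to Sdha, reached 119 CPM (3.41-fold) in sham and 102 CPM (2.73-fold) in JVL-14, and in JVL-14 B cells it stood at 88.7 CPM (2.38-fold).

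Neutrophils were low in the nuclear genes, as they were in all genes: the median level relative to all retained sham cells was 0.331 for the nuclear genes and 0.324 for all genes under the same filter. Of 82 nuclear genes, 70 were at most at 0.5 times all retained sham cells, against 63.0% of all genes, and in JVL-14 it was 56 of 80, against 59.8%. Their mitochondrial UMIs were also composed differently from those of fibroblasts. Of the mitochondrial UMIs of sham and JVL-14 neutrophils, mt-Co1, the catalytic subunit of complex IV, made up 28.3% and 32.2%, and mt-Cytb, the cytochrome b of complex III, 9.74% and 9.06%. In fibroblasts mt-Co1 made up 13.3% and 14.3%, and mt-Cytb 22.8% and 22.4%. A low mt-Cytb beside complex IV was not particular to neutrophils. In sham, mt-Cytb and the summed mitochondrial genes of complex IV stood at 355 and 2168 CPM in neutrophils. They stood at 1742 and 7109 CPM in monocytes, 3530 and 13167 CPM in B cell precursors, and 6691 and 11083 CPM in fibroblasts.

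The next question was whether the set differed between the libraries within a class. It was compared in the 9 named classes that had 50 or more cells per library, as the ratio of JVL-14 to sham. Those 9 ratios share the same 2 libraries and are not independent of each other. The mitochondrial sum was lower in JVL-14 beyond its counting interval in 6 of 9 classes and higher in 2, and the nuclear sum was higher in 6 and lower in 1. Mitochondrial UMIs per nuclear UMI were lower in JVL-14 in 8 of 9 classes. The median log2 ratio in B cells was 0.152 for the measured nuclear genes (defined below) and 0.161 for all measured genes. It was 0.087 and 0.079 in neutrophils and 2.76 and 2.64 in erythroid cells. There the nuclear genes shifted about as far as the median gene. The 2 medians were 0.167 and 0.009 in neurons, 0.133 and -0.004 in B cell precursors, and 0.052 and 0.022 in fibroblasts.

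Fibroblasts, with 1417 sham and 659 JVL-14 cells, had nearly equal sums. Their mitochondrial share was 2.94% in the sham and 2.97% in the JVL-14 library (ratio 1.013, interval 1.006 to 1.020), and their nuclear share 2.40% and 2.498% (ratio 1.04, 1.03 to 1.05). The mitochondrial ratio was below 1 in 4 of the 6 fibroblast clusters, and the unweighted mean over clusters was 0.956. An unnamed cluster led by Chad and Cilp2 (324 sham and 144 JVL-14 cells) scored best for fibroblast markers but was not in the class. Its mitochondrial ratio was 0.947 (0.935 to 0.960) and its nuclear ratio 1.04 (1.02 to 1.05). Sham fibroblasts were deeper, with a median of 5826 UMIs against 4712. In both libraries the cells under the median had the higher mitochondrial share, with medians of 3.69% against 2.59% in sham and 3.93% against 2.67% in JVL-14.

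Macrophages, with 669 and 322 cells, were lower in JVL-14 in both sums. The mitochondrial share was 2.53% of sham and 2.35% of JVL-14 UMIs (ratio 0.932, 0.919 to 0.945), and the nuclear share 1.93% and 1.79% (0.928, 0.913 to 0.943). Within the 2 macrophage clusters the mitochondrial ratio was 0.943 in the cluster led by C1qa and 1.011 in the cluster led by Ccl8, whose cells had fewer UMIs. The nuclear ratio was 0.935 (0.917 to 0.953) in the cluster led by C1qa and 0.997 (0.968 to 1.027) in the cluster led by Ccl8. The cluster led by Ccl8 held 377 of the 669 sham cells and 156 of the 322 JVL-14 cells.

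Lymphoid cells, monocytes and neurons had fewer mitochondrial UMIs in JVL-14. In monocytes the mitochondrial share went from 1.43% to 1.26% between sham and JVL-14, a ratio of 0.876 (0.860 to 0.893), and the nuclear ratio was 0.993 (0.979 to 1.007). In neurons the mitochondrial share was 1.98% and 1.85%, a ratio of 0.937, whereas the nuclear share was 3.49% and 3.93%, a ratio of 1.13 (1.12 to 1.14). B cells had ratios of 0.958 (0.937 to 0.9801) and 1.10 (1.07 to 1.13), and B cell precursors 0.898 (0.876 to 0.921) and 1.08 (1.05 to 1.10). The 2 sums thus lay on opposite sides of 1 in neurons, B cells and B cell precursors, but at a limit of 5% mitochondrial UMIs the mitochondrial ratio of B cell precursors was 1.09. In B cells the median log2 ratio of all measured genes was also above 0, at 0.161.

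The lowest mitochondrial ratio was in neutrophils and the highest in erythroid cells. In neutrophils the mitochondrial share went from 0.364% to 0.286% between sham and JVL-14, a ratio of 0.786 (0.748 to 0.826), and the nuclear ratio was 1.07 (1.04 to 1.10), with a range of 0.889 to 1.08 over its 11 alternatives. The cluster led by Camp and Ngp gave a mitochondrial ratio of 0.903 and a nuclear one of 1.096, and the one led by Retnlg and Mmp8 gave 0.630 and 0.970. In osteoblast lineage cells the ratios were 0.9997 (0.978 to 1.02) and 1.03 (0.997 to 1.05). In erythroid cells they were 1.61 (1.53 to 1.69) and 5.45 (5.18 to 5.75). The makeup of that class also differed. Its cluster led by the haemoglobin genes Hba-a2 and Hbb-bs held 63 of the 75 sham and 30 of the 108 JVL-14 cells, and its other cluster held 12 and 78. Erythroid markers summed to 908038 CPM in the sham class and 703408 CPM in the JVL-14 class. In the cluster led by Hba-a2 alone the ratios were 0.691 and 0.946. The other erythroid cluster, with 12 sham cells only, was higher in JVL-14 in both sums. Its mitochondrial share was 0.2005% in sham and 0.433% in JVL-14, and its nuclear share 0.202% and 1.19%. The part of the makeup in the class ratios was not tested.

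**Figure D3:**
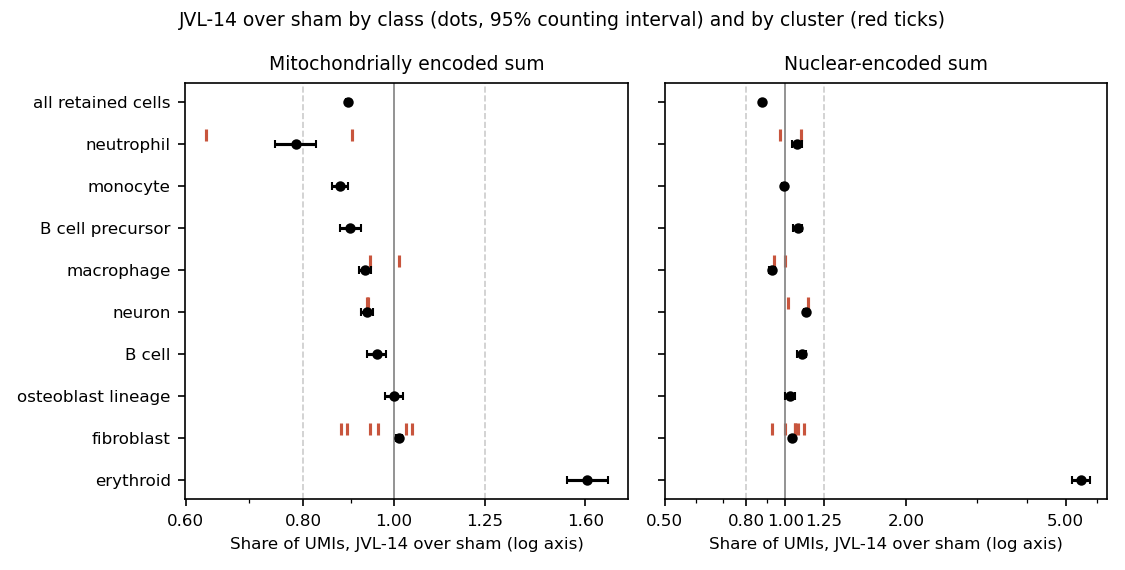
Ratio of JVL-14 to sham, on a log axis, of the mitochondrial and the nuclear sum in each compared class, with 95% counting intervals. The mitochondrial ratio lies below the nuclear one in every class shown except macrophages (0.932 and 0.928) and all retained cells (0.893 and 0.873).

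Over all retained cells both sums were lower in JVL-14, at 0.893 (0.890 to 0.897) for the mitochondrial and 0.873 (0.869 to 0.876) for the nuclear genes. The nuclear value turned with the scarce classes: without muscle, choroid plexus, pineal and mural cells it was 1.05, and the mitochondrial value was 0.878. A gene was counted as past the fold limit where 1 library's level was at most 0.8 times that of the other, among genes with a mean of at least 20 CPM over the 2 libraries and at least 100 UMIs in all, called measured. Of 90 measured nuclear genes, 1 was higher in JVL-14 by this limit (11.3% of all 6545 measured genes were) and 11 lower (15% of all genes). The 11 lower genes included Cox8b at 76.0 against 1.76 CPM, Cox6a2 at 138 against 12.7 CPM, Cox7a1 at 42.8 against 5.68 CPM and Atp5g1 at 482 against 274 CPM. Without the scarce classes, a setting added after the data were seen, 0 of 87 nuclear genes were lower by this limit (17% of all genes) and 2 were higher (11.4%).

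Among the mitochondrial genes, the ratios differed by gene more than the sum shows. The gene mt-Cytb was below 1 in all 9 classes, with 7 intervals below 1, and so was mt-Nd2, a proton-pumping subunit of complex I, with 5. The complex I subunits mt-Nd1 and mt-Nd4 were below 1 in 8 of 9 classes each, and mt-Co1 was above 1 in 6 of 9. Only mt-Nd4l, the smallest complex I subunit made in mitochondria, was above 1 in all 9 classes. In the 8 classes where it was measured it stood at 1.15 to 1.72, with 6 intervals above 1. Its share of mitochondrial UMIs was 1.78% in retained sham cells and 2.17% in JVL-14, and in the barcodes over the 10% limit 1.92% and 2.51%. It was higher in JVL-14 in 12 of the 14 classes that had 20 or more cells per library; the exceptions were mast cells (1.015% and 0.863%) and the natural killer or innate lymphoid class (1.83% and 1.82%). The reading frames of mt-Nd4l and mt-Nd4 overlap on 1 transcript, as do those of mt-Atp8 and mt-Atp6, so the split of UMIs within each pair is uncertain.

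**Figure D4:**
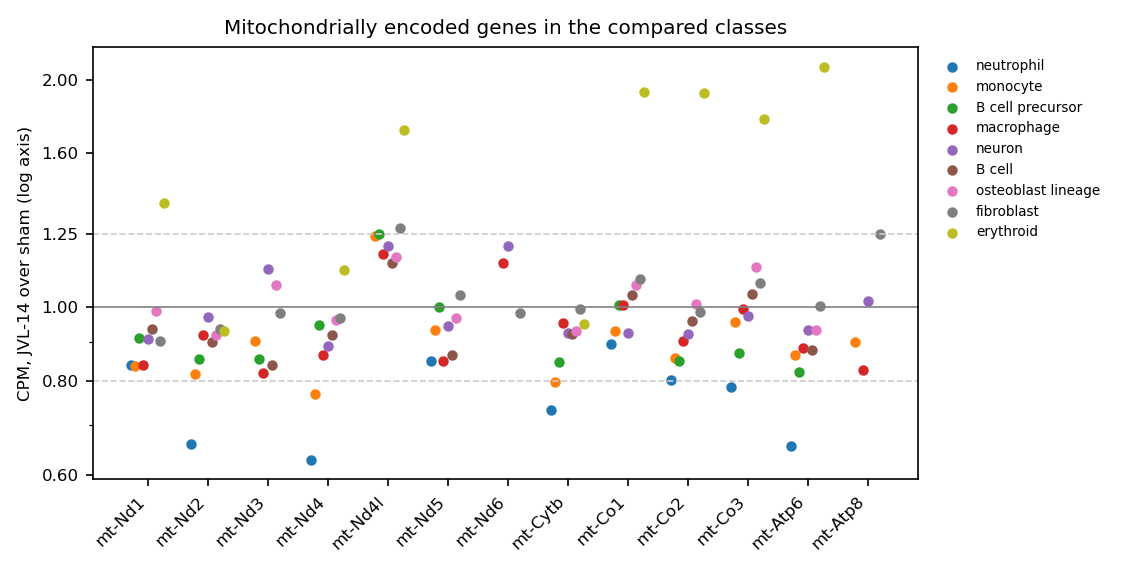
Ratio of JVL-14 to sham of each of the 13 mitochondrial genes in the classes where it was measured. The gene mt-Nd4l is above 1 in all 8 classes where it was measured, and mt-Cytb and mt-Nd2 are below 1 in all 9.

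In single classes, some mitochondrial genes were past the fold limit. In neutrophils mt-Nd4 stood at 258 CPM in the sham and 162 CPM in the JVL-14 library, a ratio of 0.629 (0.510 to 0.772), and mt-Atp6, the proton channel subunit of ATP synthase, at 501 and 329 CPM, a ratio of 0.656 (0.567 to 0.758). There mt-Nd2 (0.659), mt-Cytb (0.731) and the complex IV subunit mt-Co3 (0.785) were also past it, 5 of 9 measured genes in all, against 9.9% of all genes lower in that class. In monocytes 2 of 12 were past it, against 18.6% of all genes lower: mt-Nd4 went from 1046 to 804 CPM between sham and JVL-14 (0.768, 0.713 to 0.828), and mt-Cytb at 1742 and 1387 CPM (0.796, 0.752 to 0.843). In fibroblasts mt-Nd4l stood at 551 and 701 CPM (1.27, 1.21 to 1.33) and mt-Atp8 at 72.2 and 90.3 CPM (1.251, 1.10 to 1.42), 2 of 13 measured genes, against 9.39% of all genes higher. Each of these differences exceeds counting error between 2 libraries and has no replicate check.

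The nuclear genes mostly stayed inside the fold limit of 0.8, and their share past it was usually under that of all genes. In fibroblasts 2 of 88 measured genes were higher (9.39% of all genes) and 0 lower (9.8% of all genes). In macrophages 1 of 81 was higher (12% of all genes) and 5 lower (14.6%). In monocytes 5 of 84 were higher (14.5%) and 3 lower (18.6%), and in neurons 4 of 88 were higher (10.1%) and 0 lower (12.6%). In B cells 14 of 66 were higher (30.6%) and 1 lower (7.6%), and in B cell precursors 13 of 69 were higher (13.4%) and 2 lower (16.5%). In neutrophils 8 of 60 were higher (22.9%) and 0 lower (9.9%), and in osteoblast lineage cells 4 of 65 were higher (12.6%) and 4 lower (16.5%). In erythroid cells all 49 measured genes were higher (91.2% of all genes) and 0 lower (3.26%). The set of all genes was not matched to the members in abundance, and its share can depend on the UMI floor. In osteoblast lineage cells the share higher was 12.6% with at least 100 UMIs and 23.5% with at least 20. In fibroblasts it was 9.39% with both. A share under that of all genes therefore does not show by itself that the members differed less.

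**Figure D5:**
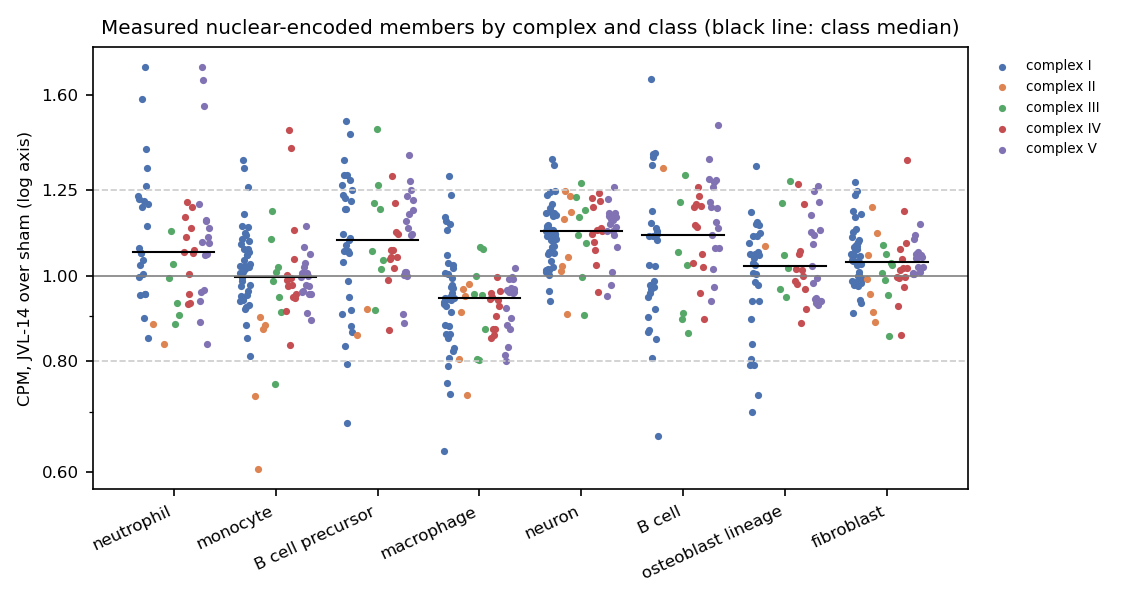
Ratio of JVL-14 to sham of each measured nuclear gene by class, with the fold limits as lines. In fibroblasts 2 of 88 genes lie above the upper limit and 0 below the lower one, and in neurons 80 of 88 lie above 1.

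In neurons the nuclear shift was small per gene and spread over the complexes. Of 88 measured genes 80 were above 1, with a range of 0.903 to 1.35, and the summed ratio was 1.13 for complex I, 1.06 for complex II, 1.12 for complex III, 1.14 for complex IV and 1.12 for complex V. The mitochondrial ratios of complexes I, III, IV and V were 0.947, 0.925, 0.937 and 0.935. In macrophages the nuclear ratios ran from 0.903 (complex II) to 0.945 (complex III), with 66 of 81 genes below 1. In fibroblasts 63 of 88 genes were above 1.

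Among complex I genes, the accessory subunit Ndufb10 differed in direction between classes. It stood at 168 CPM in sham B cell precursors and 252 CPM in those of JVL-14 (1.498, 1.12 to 2.01), at 55.6 and 88.2 CPM in neutrophils (1.59, 1.13 to 2.22), and at 179 and 141 CPM in macrophages (0.789, 0.658 to 0.943). The difference between these classes was not tested. In macrophages the accessory subunits Ndufa10 (73.2 and 46.3 CPM; 0.632, 0.460 to 0.858) and Ndufb7 (216 and 159 CPM; 0.735, 0.6196 to 0.868) and the assembly factor Ndufaf8 (90.1 and 68.1 CPM; 0.756, 0.580 to 0.977) were lower in JVL-14. In neurons the accessory subunits Ndufb4 (132 and 179 CPM; 1.35, 1.15 to 1.603) and Ndufs5 (164 and 218 CPM; 1.34, 1.15 to 1.55) were higher.

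Further complex I members were past the limit in a single class or in a pair of classes. In B cells Ndufab1, the acyl carrier protein of mitochondria, stood at 79.2 and 132 CPM (1.67, 1.13 to 2.48) and Ndufv3 at 135 and 88.7 CPM (0.658, 0.446 to 0.959); at a limit of 5% mitochondrial UMIs Ndufv3 was at 1.002. In B cell precursors the accessory subunit Ndufb5 stood at 295 and 201 CPM (0.681, 0.522 to 0.886). Ndufa6, an accessory subunit, stood at 254 and 344 CPM in B cell precursors (1.35, 1.06 to 1.72) and at 248 and 174 CPM in osteoblast lineage cells (0.702, 0.523 to 0.935). In fibroblasts the assembly factor Ndufaf2 stood at 35.3 and 45.03 CPM (1.27, 1.06 to 1.53), and in osteoblast lineage cells the accessory subunit Ndufb11 at 355 and 281 CPM (0.792, 0.627 to 0.997). In neutrophils the accessory subunit Ndufc1 stood at 42.4 and 73.05 CPM (1.72, 1.18 to 2.52), and in monocytes the core subunit Ndufs3 at 86.7 and 109 CPM (1.26, 1.004 to 1.57). With cells thinned to 1000 UMIs, Ndufc1 was at 0.970 and Ndufs3 at 0.972.

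In complex II, Sdha and Sdhaf1 were past the limit in monocytes. Sdha, the flavoprotein that oxidises succinate, was at 74.6 CPM in the sham and 54.6 CPM in the JVL-14 library (0.732, 0.543 to 0.975), and its assembly factor Sdhaf1 at 52.6 and 31.8 CPM (0.604, 0.410 to 0.872). The complex II sum in that class was 0.877 (0.792 to 0.970). In complex III, Uqcrc1, a core subunit on the matrix side, stood at 118 and 88.8 CPM in monocytes (0.754, 0.598 to 0.945). It stood at 130 and 166 CPM in neurons (1.27, 1.07 to 1.51) and at 101 and 148 CPM in B cell precursors (1.46, 1.005 to 2.15), but at a limit of 5% mitochondrial UMIs the ratio in B cell precursors was 0.886.

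In complex IV, Ndufa4l2 was the highest ratio in fibroblasts, at 21.4 CPM in the sham and 28.9 CPM in the JVL-14 library (1.35, 1.07 to 1.70), with 13.8% and 28.4% of its UMIs in 5 cells of each library. Its mean over cells gave 0.982. Cox6a2 in monocytes (1.46, 1.12 to 1.91) rested on the few cells described above, and without the 5 cells with the most UMIs in each library it was 0.729. The complex IV nuclear sum was within 0.912 and 1.14 in the compared classes other than erythroid cells.

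In complex V, copies of the c subunit gene were higher in JVL-14 neutrophils. Atp5g1 stood at 41.0 and 70.5 CPM (1.72, 1.167 to 2.54), Atp5g2 at 68.0 and 113 CPM (1.67, 1.23 to 2.25) and Atp5g3 at 53.4 and 83.1 CPM (1.56, 1.10 to 2.20). In JVL-14, 5 cells held 51.8%, 38.9% and 34.8% of their UMIs, against 28.6%, 20.4% and 20.5% in sham. Without cells under 500 genes, the ratios of Atp5g1 and Atp5g2 were 0.840 and 0.913, and that of Ndufc1 0.986. Elsewhere Atp5k stood at 525 and 662 CPM in neurons (1.26, 1.16 to 1.37), but at 0.978 with cells thinned to 1000 UMIs. Atp5o, the stalk subunit that confers oligomycin sensitivity, stood at 126 and 187 CPM in B cells (1.48, 1.08 to 2.03) and Atp5j2 at 304 and 416 CPM in B cell precursors (1.37, 1.10 to 1.70).

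Lists of related genes were counted by the same limit in the large classes, where all genes gave 9.39% higher and 9.8% lower in fibroblasts, 10.1% and 12.6% in neurons, and 12% and 14.6% in macrophages. Of the cytochrome c and assembly genes not taken by the symbol rule (36), 3 of 19 measured were higher and 0 lower in fibroblasts, and 0 of 20 were past the limit in neurons. Of tricarboxylic acid cycle and pyruvate dehydrogenase genes 0 of 19 were past it in fibroblasts, and 3 of 15 were lower in macrophages. Of glycolysis genes 2 of 15 were lower in fibroblasts. Of mitochondrial ribosome genes, which translate the 13 mitochondrial genes, 8 of 69 were higher and 0 lower in fibroblasts, a summed ratio of 1.10, and 10 of 70 were higher and 3 lower in neurons. Genes induced by dissociation, such as the immediate early genes, also differed between the libraries, with 2 of 20 higher and 10 lower in fibroblasts and a summed ratio of 0.840. In B cell precursors 10 of 11 were higher (13.4% of all genes) and 0 lower (16.5%), with a summed ratio of 1.52. In monocytes 8 of 19 were higher (14.5%) and 0 lower (18.6%), and in B cells 7 of 13 were higher (30.6%) and 3 lower (7.6%). In macrophages 6 of 19 were higher and 2 lower. In neurons 1 of 8 was higher and 4 lower, with a summed ratio of 0.787. The part of these genes in the ratios above was not tested.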

How the data were processed

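Raw UMI counts per gene and barcode of both libraries were used as deposited by the authors, made with Cell Ranger 8.0.0 per the file headers, on mm39 per the submitters' processing notes; which gene annotation was used is not given in the sources here. Barcodes with at least 200 genes and at most 10% mitochondrial UMIs were kept. Scrublet's automatic threshold marked 0.121% and 0.230% of barcodes and was not used; the top 5% of doublet scores were removed (279 and 137 barcodes). Cells of both libraries were clustered together with scanpy 1.11.5 (2000 variable genes, 5 of them members; 30 components, 15 neighbours, Leiden resolution 1.0, igraph 0.11.9), giving 35 clusters, of which 29 were named from listed markers with limits set after the clusters were seen.

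Class sums of UMIs were formed for each library and scaled to CPM. Intervals are exact (conditional binomial for ratios, Clopper-Pearson for shares, Poisson for CPM). The computation of the ratio intervals was checked on Poisson counts simulated for the fibroblast comparison, where over 6132 genes 95.6% held the true value. Such counts follow the model that the interval assumes and hold no spread between cells. The check therefore does not bear on that spread or on small classes. A member was called where 1 library was at most 0.8 times the other. Named genes are all mitochondrial members, the 5 highest and 5 lowest ratios per compared class, up to 5 per class at least 2-fold above all retained cells, and the listed tissue-restricted isoforms; values of erythroid members and of ratios whose interval held 1 are given as counts. The members and lists were chosen with earlier results of these data known. Alternatives varied the filters, doublet removal, clustering, denominator, weighting and depth.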

Additional observations from a re-analysis of the deposited data

Results flagged for a closer look

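The mitochondrial sum differed in direction between 2 classes under the same contrast. Its ratio of JVL-14 to sham was 1.61 in erythroid cells and 0.786 in neutrophils. The difference between the classes was not tested, and in the erythroid cluster that held 63 sham and 30 JVL-14 cells the ratio was 0.691. In the other erythroid cluster, with 12 and 78 cells, the mitochondrial share was 0.2005% in sham and 0.433% in JVL-14.

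Barcodes left out by the filters also held mitochondrial RNA. Among barcodes with under 200 genes, 10 of 266 in sham and 2 of 244 in JVL-14 had over 50% mitochondrial UMIs, up to 98.1% and 97.9%, whereas the median was 0.0279% and 0.0253%. Barcodes over the 10% limit held 15.3% mitochondrial UMIs in sham and 16.3% in JVL-14, with 2.18% and 2.62% nuclear UMIs of the set.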

How the results depend on the processing

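No paired analysis was possible because each group has 1 library. For the 6 sums over all retained cells, fibroblasts and macrophages, 29 of 68 alternatives left the ratio within its counting interval, 39 moved it and 5 put it on the other side of 1. Over all retained cells the mitochondrial ratio was 0.954 as a mean over cells, 0.953 thinned to 1000 UMIs, 0.910 as a mean over clusters, 0.942 without mitochondrial, haemoglobin and ribosomal genes in the denominator, 0.911 at a limit of 5% mitochondrial UMIs, 0.889 at 20%, 0.909 with none, 0.919 with at least 500 genes and 0.878 without the scarce classes. The nuclear ratio was, in that order, 0.809, 0.829, 1.04, 0.9201, 0.861, 0.877, 0.906, 0.903 and 1.05, and it was 0.906 without doublet removal and 0.877 without the top 5 cells. In fibroblasts the mitochondrial ratio was 1.03 as a mean over cells, 1.02 thinned, 0.956 over clusters, 1.0045 without the top 5 cells, 0.983 at 5%, 1.03 with no limit, 1.005 with at least 500 genes, 1.0047 without doublet removal and 0.991 when clustered without the members; the nuclear ratio was 1.03 thinned and 1.06 at 5%. In macrophages the mitochondrial ratio was 0.976 over clusters, 0.914 without the top 5 cells, 0.917 at 20%, 0.902 with no limit and 0.915 with at least 500 genes; the nuclear ratio was 0.898 thinned, 0.965 over clusters and 0.947 with at least 500 genes.

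Of the 44 recounts of nuclear genes past the limit, 29 stayed within 1.5 times. With a floor of 20 UMIs in place of 100, more genes were measured and the count rose from 14 to 26 higher and from 1 to 3 lower in B cells (of 87; 38% and 14% of all genes), from 2 to 8 lower in B cell precursors (of 87; 27.6%), from 1 to 3 higher in macrophages (of 86; 14.4%), from 8 to 16 higher in neutrophils (of 74; 27.9%), and from 4 to 12 higher and 4 to 8 lower in osteoblast lineage cells (of 86; 23.5% and 25%). With the other denominator the lower count went from 11 to 5 of 90 in all retained cells (10.8% of all genes) and 2 to 1 of 69 in B cell precursors (15.9%). It went from 0 to 2 of 49 in erythroid cells (19.7%) and 4 to 2 of 65 in osteoblast lineage cells (14.2%). Without the scarce classes, in all retained cells the count went from 1 to 2 higher and 11 to 0 lower (of 87; 11.4% and 17% of all genes). In the erythroid cluster led by Hba-a2 alone 0 were higher and 1 lower, of 4 measured (19.1% and 35% of all genes). Alternatives that left out the scarce classes or the other erythroid cluster, and levels with no limit, were chosen after seeing the data.

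Across the other 18 sums, 21 of 158 alternatives lay on the other side of 1, among them the B cell precursor mitochondrial ratio at 1.09 with a limit of 5% and the neutrophil nuclear ratio at 0.889 with at least 500 genes. Of the 21, 5 turned a called ratio: the erythroid mitochondrial ratio was 0.952 as a mean over cells, 0.562 with the other denominator, 0.979 without doublet removal and 0.691 in the cluster led by Hba-a2, where the nuclear one was 0.946. Of 413 recomputed ratios of the 40 members past the limit, 14 turned: in fibroblasts Ndufa4l2 to 0.982 as a mean over cells; in monocytes Ndufs3 to 0.972 thinned and Cox6a2 to 0.729 without the top 5 cells, 0.649 at 5%, 0.603 with at least 500 genes, 0.651 without doublet removal and 0.668 when clustered without the members; in neurons Atp5k to 0.978 thinned; in neutrophils Ndufc1 to 0.970 thinned and, with at least 500 genes, Ndufc1 to 0.986, Atp5g1 to 0.840 and Atp5g2 to 0.913; and at 5% Ndufv3 in B cells to 1.002 and Uqcrc1 in B cell precursors to 0.886. Except where fewer or other cells or genes entered by construction, the cause was not tested. The neutrophil mitochondrial ratio was 0.672 to 0.792 under its 11 alternatives. Single members of small classes rest on about 100 UMIs.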
